A study of Homo sapiens with 12 samples.

Results

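The 43 genes described here encode regulators of pre-mRNA splicing, taken as a list of names: 13 SR proteins and SR-like proteins, 17 heterogeneous nuclear ribonucleoproteins (hnRNPs), the 4 CLK kinases, and 9 further factors of the RBM, U2AF, SON and CIRBP kind. They were chosen by symbol, and all 43 of them were found among the 34318 genes that the deposited table could be matched to. Together they comprised 602 transcript rows, of which 260 were annotated protein_coding, 174 retained_intron, 95 nonsense_mediated_decay (NMD) and 73 processed_transcript. The data came from HEK293T, an established line of human embryonic kidney cells that carries the SV40 large T antigen and is easily transfected, and every group was grown from this line. In the first experiment an siRNA that targets POLR3A, which encodes the catalytic subunit of RNA polymerase III, was introduced by lipid transfection, and these cells (siPOLR3A) and cells given the control siRNA (siControl) were collected after 2 days. In the second experiment they were exposed for 4 hours to the vehicle, 0.1% DMSO, or to 25 µM ML60218, a small-molecule inhibitor of RNA polymerase III. Each of the 4 groups had 3 libraries of poly(A) RNA. The labels do not say whether replicates came from separate cultures, so the p-values measure the spread between these libraries, which may be partly technical.

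SR proteins bind exons through RNA recognition motifs and recruit the spliceosome through a tail rich in arginine and serine, whereas many hnRNPs bind introns or exon edges and block splice sites. CLK kinases phosphorylate the arginine-serine tails and so set the location and the activity of SR proteins. Many of these genes regulate their own output: an alternative exon with a premature stop codon (a poison exon), or a retained intron, diverts part of the transcripts to nuclear retention or to nonsense-mediated decay, the pathway that destroys mRNAs with early stops. The comparison of coding rows with NMD and retained-intron rows of the same gene is therefore given beside the gene totals.

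The 12 libraries held between 37008325 and 49479476 estimated reads, and matched rows carried 91.0% to 91.6% of them. The splicing regulators took 1.84% to 1.89% of matched reads in the siRNA experiment and 1.91% to 2.04% in the ML60218 experiment. POLR3A itself was measured at 92.2, 93.5 and 86.8 CPM (counts scaled to a common number of matched reads, with TMM) in siControl and at 19.3, 19.0 and 14.6 CPM in siPOLR3A. Its fold change on the log2 scale was −2.36 (SE 0.108, adjusted p = 1.94e-05), so the target gene followed the labels. Of 7 epithelial and HEK293 markers, 6 had a mean level of at least 1 TPM, with a summed level of 349 to 361 TPM in siPOLR3A, 457 to 476 TPM in siControl, 440 to 472 TPM in DMSO and 492 to 545 TPM in ML60218. In these bulk libraries, fewer cells of a kind and less RNA per cell cannot be told apart. The 5 blood cell markers, with PTPRC and HBB at 0 in every library, summed to 2.72 to 3.21 TPM in siControl, 4.80 to 5.49 TPM in siPOLR3A, 3.15 to 3.58 TPM in DMSO and 3.06 to 3.72 TPM in ML60218. The 5 fibroblast and endothelial markers, of which COL1A1 was the main contributor, summed to 20.7 to 22.7, 24.1 to 28.5, 18.5 to 20.2 and 19.3 to 21.3 TPM in the same order. The epithelial sum was thus lower and both other sums higher in siPOLR3A than in siControl, and the epithelial sum was higher in ML60218 than in DMSO. The part of these shifts in the results was not tested.

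Matched rows did not cover every member equally. HNRNPR was represented by a single short processed_transcript row at a mean of 0.924 TPM in siControl and 0.807 TPM in DMSO, and its coding rows are not analysed here. CLK2 was represented by a single coding row at 0, 6.06 and 36.1 CPM in siControl and at 31.9, 30.2 and 12.3 CPM in siPOLR3A, and it did not pass the count filter in the ML60218 experiment. The spread within siControl spanned the siPOLR3A values, so these rows gave no usable level for either gene. For HNRNPA3 and HNRNPA1, 63.4% and 52.7% of the reads placed at the gene lay in unmatched rows between matched ones, and for PTBP2, HNRNPF, HNRNPK and HNRNPA2B1 the share was 44.2%, 43.2%, 36.1% and 34.3%. Several members also have near-identical copies, such as the paralogs HNRNPH1 and HNRNPH2, an annotated second copy of U2AF1 and processed pseudogenes of HNRNPA1, HNRNPA3, HNRNPC and HNRNPK, and reads of these could have been shared out among copies by the quantification.

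The first comparison asked how the transcript levels of these regulators differed 2 days after the POLR3A siRNA. Of 43 members tested at gene level, 30 changed (Benjamini-Hochberg adjusted p under 0.05 with edgeR's quasi-likelihood test over all 15404 genes), 13 upward and 17 downward, with a median log2 fold change of −0.01. The background was 56.6% of all genes called, 27.4% higher and 29.2% lower, with a median of 0.01. The balance between rises and falls depended on the scaling: 18 rose and 14 fell with total counts and when scaled by the upper quartile, and 20 rose and 14 fell after a correction for GC content and length. The 3 libraries of each group did not overlap for 31 members, against 63.4% of all genes. The members that changed ranged from HNRNPH2 at −1.16 to SON at 0.60 on the log2 scale.

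The second comparison asked the same after 4 hours of ML60218. Here 29 of 42 members tested changed, and 27 of these fell while CIRBP and CLK4 rose. The median log2 fold change was −0.17, compared with 0.01 over all genes. The background was 39% of 15461 genes called, 18.1% higher and 20.9% lower. Groups did not overlap for 30 members, against 51.9% of all genes. Each ML60218 library lay below the DMSO mean for most members, in 33, 39 and 34 of 42. These counts share the same DMSO mean, and the share over all genes was not computed. The number that fell was 18 with total counts, 24 when scaled by the upper quartile and 29 after a correction for GC content and length, and no member called in this comparison changed sign under any alternative. On the deposited TPM scale, which is divided by transcript length and not scaled by TMM, 8 of the 27 that fell had a mean that was not below the DMSO mean: SRSF7, SRSF11, TRA2A, HNRNPA1, HNRNPC, HNRNPD, HNRNPH1 and HNRNPK. NMD and retained-intron rows of all genes also took more of the reads in ML60218 (2.64% to 2.74% and 4.66% to 5.10%) than in DMSO (2.46% to 2.49% and 4.45% to 4.65%), and the part of this in the members' values was not tested.

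**Figure D1:**
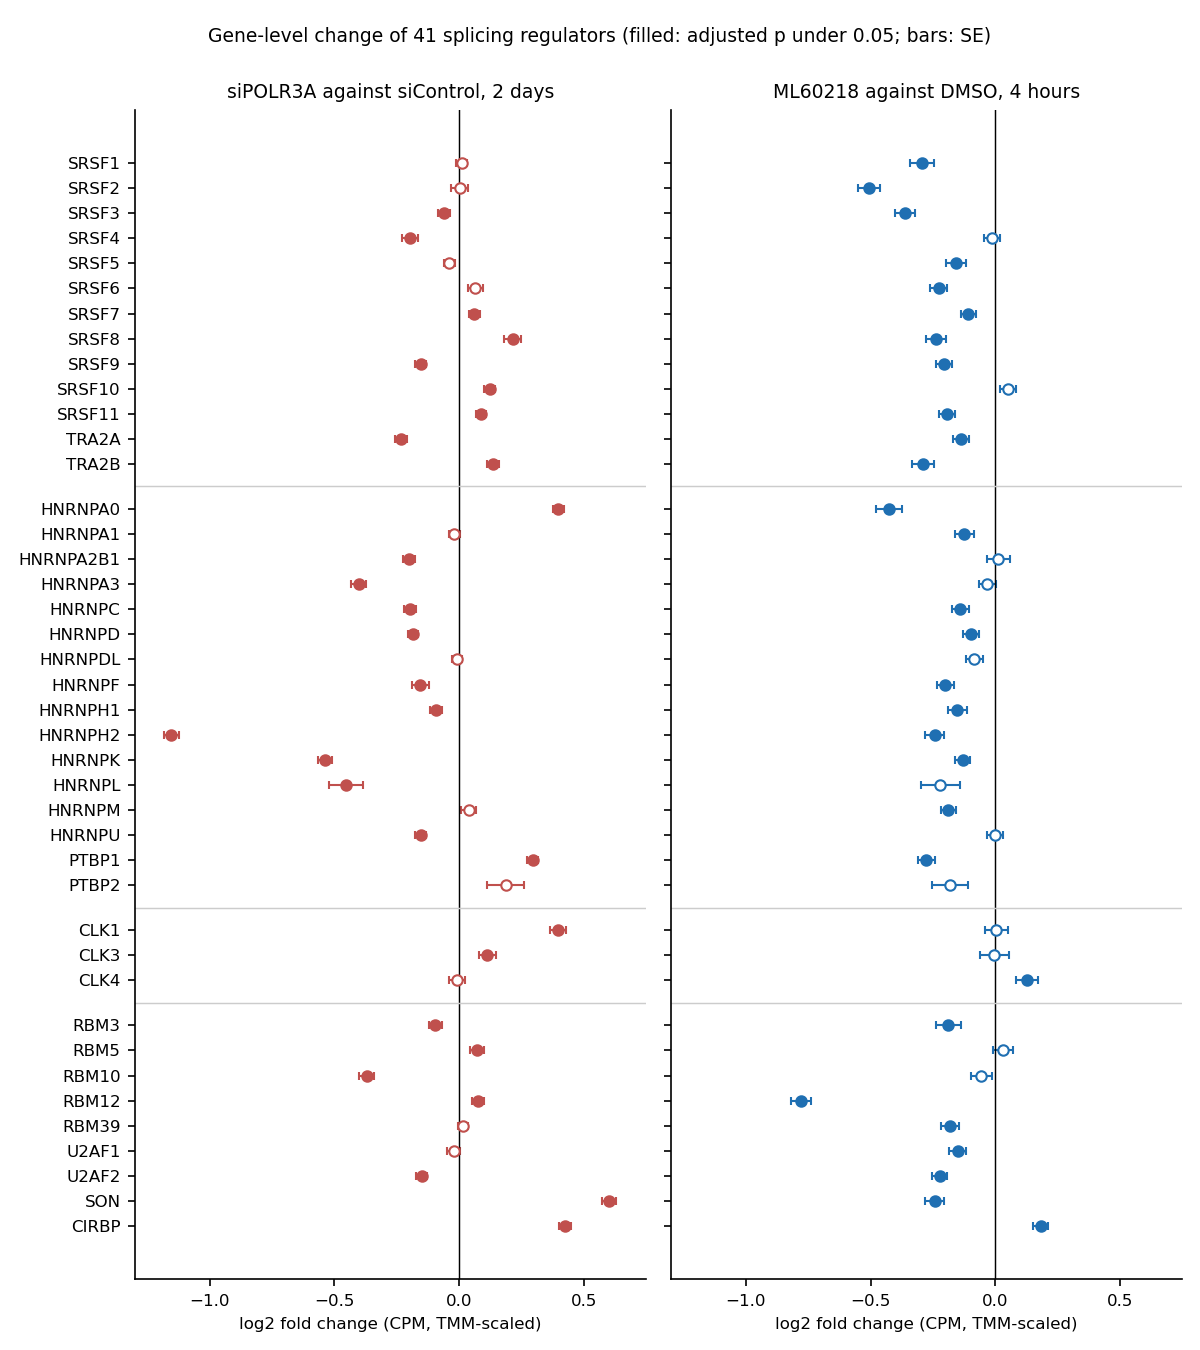
Gene-level log2 fold change (x axis, no unit) of the members other than HNRNPR and CLK2 (y axis, grouped as SR proteins, hnRNPs, CLK kinases and other regulators) after siPOLR3A (left) and ML60218 (right). Points are estimates, bars are 1 SE and filled points have an adjusted p under 0.05; the siRNA values lie on either side of 0 from −1.16 to 0.60, and in the ML60218 panel all filled points but CIRBP and CLK4 lie below 0.

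Among SR proteins, the siRNA left 4 of 13 without a call and moved 5 up and 4 down, all by small amounts, whereas with ML60218 all 11 that changed fell. The median of the list was 0.01 after the siRNA and −0.20 with ML60218. SRSF2, which binds exonic enhancers and activates splice-site choice, stood at 398, 403 and 403 CPM in DMSO and at 302, 280 and 265 CPM in ML60218. All 3 treated libraries lay below all 3 controls, and the fold change on the log2 scale was −0.51 (SE 0.044, adjusted p = 0.000118). In the siRNA experiment SRSF2 was measured at 297, 321 and 330 CPM in siControl and at 317, 319 and 315 CPM in siPOLR3A. These groups overlapped, and the difference was 0.00 on the log2 scale (adjusted p = 0.963).

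SRSF3, the smallest classical SR protein, which also couples splicing to export, stood at 746, 768 and 748 CPM in DMSO and at 593, 612 and 554 CPM in ML60218. The groups were separate, with a fold change on the log2 scale of −0.36 (SE 0.039, adjusted p = 0.000237). SRSF1, the founding member of the family, fell from 920.3, 933 and 914 CPM to 785, 783 and 689.6 CPM (log2 fold change −0.29, adjusted p = 0.00159). TRA2B, which binds AGAA-rich exonic enhancers, stood at 315, 318 and 312 CPM in DMSO and at 261, 273 and 241 CPM in ML60218, a change of −0.29 (adjusted p = 0.000972). The same gene rose after the siRNA, from 245, 243 and 251 CPM to 273, 268 and 271 CPM, a change of 0.14 (adjusted p = 0.000143). SRSF1, SRSF3 and TRA2B, and the further genes named below only for their part in a list, were picked after their values were seen.

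The other SR proteins that fell with ML60218 were SRSF5, SRSF6, SRSF7, SRSF8, SRSF9, SRSF11 and TRA2A, by log2 values between −0.24 and −0.11. SRSF11 was at −0.05 with the isoform length offset (adjusted p = 0.524), and TRA2A lost its call with total counts. SRSF7 lost its call with total counts, with upper quartile scaling and without DMSO replicate 1, 2 or 3, and SRSF5 lost its call with total counts and without DMSO replicate 3. SRSF4 and SRSF10 did not pass the test with ML60218, at −0.01 and 0.05. SRSF10, which is activated as a repressor when it is dephosphorylated, rose after the siRNA by 0.12 (adjusted p = 0.000406). SRSF8 rose after the siRNA by 0.22, and SRSF7 and SRSF11 rose by 0.06 and 0.09. The calls of SRSF8 and SRSF10 were lost with the isoform length offset, and that of SRSF7 was lost in 5 of 17 alternatives, among them the fits without siControl replicate 2 and without siPOLR3A replicate 1 or 3. SRSF4, SRSF9 and TRA2A fell after the siRNA by 0.20, 0.15 and 0.23, and SRSF3 was called at −0.06 with overlapping groups, a call that was lost in 11 of 17 alternatives, among them 5 of the 6 that left out a library, and changed sign in 1.

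Among hnRNPs, the siRNA moved 10 of 17 down and 2 up, with a list median of −0.16, and ML60218 moved 10 down and none up, with a median of −0.15. HNRNPH2, which binds runs of guanines and is encoded on the X chromosome (101408295 to 101414133, plus strand, GRCh38), stood at 227, 239 and 232 CPM in siControl and at 104, 108 and 101 CPM in siPOLR3A. The groups were far apart, and the fold change on the log2 scale was −1.16 (SE 0.030, adjusted p = 9.69e-13), the largest among the members in this comparison. With ML60218 it moved from 266, 269.6 and 266 CPM in DMSO to 234, 228 and 215 CPM, a fold change on the log2 scale of −0.24 (SE 0.036, adjusted p = 0.000934). Its close paralog HNRNPH1 fell by 0.09 after the siRNA, a call that was lost with total counts, upper quartile scaling or a correction for GC content and length, and by 0.15 with ML60218, a call that was lost without DMSO replicate 3 and with the isoform length offset.

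HNRNPK, which binds cytosine-rich stretches, stood at 743, 741 and 778 CPM in siControl and at 505, 535 and 518 CPM in siPOLR3A. All treated libraries lay below all controls, with a fold change on the log2 scale of −0.54 (SE 0.027, adjusted p = 8.72e-10). With ML60218 it stood at 804, 802 and 779 CPM against 872, 873 and 865 CPM in DMSO. That change was −0.13 (adjusted p = 0.00694), and with total counts it was −0.06 (adjusted p = 0.0845). HNRNPL, which binds CA repeats, was measured at 343, 319 and 301 CPM in siControl and at 218, 242 and 243 CPM in siPOLR3A, without overlap (log2 fold change −0.45, SE 0.068, adjusted p = 0.00284). In ML60218 HNRNPL stood at 283, 342 and 279 CPM against 358, 342 and 353 CPM in DMSO, and this difference did not pass the test (adjusted p = 0.0693).

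HNRNPA0, a member of the A/B group that binds AU-rich elements, moved in opposite directions. It stood at 206, 208 and 208 CPM in siControl and at 274, 276 and 269.6 CPM in siPOLR3A. ML60218 libraries held 239.9, 234 and 207 CPM and DMSO libraries 312, 301 and 301 CPM. Both pairs of groups were separate, with log2 fold changes of 0.40 (SE 0.022, adjusted p = 2.26e-09) and −0.43 (SE 0.052, adjusted p = 0.000493). PTBP1, the polypyrimidine tract binding protein, which represses neuronal exons, showed the same opposition: it rose by 0.30 after the siRNA (447, 452 and 439 to 542, 557 and 543 CPM) and fell by 0.28 with ML60218 (551, 544 and 529 to 447, 462 and 432 CPM). Its paralog PTBP2 passed the test in neither comparison (0.19 and −0.18). The siRNA value of PTBP2 passed in 9 of 17 alternatives, and with neighbouring unmatched rows included the values were −0.01 and 0.01, so that both directions turned.

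HNRNPA3, HNRNPA2B1, HNRNPC, HNRNPD, HNRNPF and HNRNPU also fell after the siRNA, by log2 values between −0.40 and −0.15. With the unmatched neighbouring rows included, HNRNPF was at −0.01 after the siRNA (adjusted p = 0.837) and HNRNPA1, not called from matched rows at −0.02, was at −0.12 (adjusted p = 6.26e-05). HNRNPU lost its siRNA call with an offset for isoform length, at −0.03. With ML60218, HNRNPA1, HNRNPC, HNRNPD, HNRNPF and HNRNPM fell by log2 values between −0.20 and −0.10. Among these, HNRNPA1 and HNRNPD lost their call without DMSO replicate 1, 2 or 3 and without ML60218 replicate 2, and HNRNPC lost its call without DMSO replicate 1 or 2. HNRNPDL, HNRNPA2B1, HNRNPA3 and HNRNPU did not pass the test with ML60218, at −0.08, 0.01, −0.03 and −0.00.

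CLK kinases were low in level, and their changes were upward where a call was made. CLK1 stood at 67.8, 63.6 and 67.7 CPM in siControl and at 88.7, 86.9 and 86.8 CPM in siPOLR3A. The groups did not overlap, and the fold change on the log2 scale was 0.40 (SE 0.032, adjusted p = 1.18e-07). In ML60218 CLK1 was at 74.5, 67.6 and 71.5 CPM and in DMSO at 68.6, 71.1 and 73.2 CPM, with a change of 0.01 (adjusted p = 0.939). CLK3 was at 57.4, 58.0 and 55.4 CPM in siControl and at 62.9, 59.8 and 61.9 CPM in siPOLR3A, a change of 0.11 (SE 0.033, adjusted p = 0.0103). This call was lost without siControl replicate 3 (adjusted p = 0.0524), without siPOLR3A replicate 1 (adjusted p = 0.0545) and after a correction for GC content and length (adjusted p = 0.108).

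With ML60218, CLK3 stood at 55.7, 49.98 and 48.8 CPM against 49.4, 51.0 and 54.3 CPM in DMSO, which overlapped. CLK4 was at 44.6, 45.1 and 44.6 CPM in siControl and at 45.2, 44.5 and 43.9 CPM in siPOLR3A, which also overlapped. For ML60218 the CLK4 values were 45.0, 44.8 and 47.5 CPM against 41.9, 40.7 and 43.2 CPM in DMSO. That difference of 0.13 on the log2 scale (SE 0.045, adjusted p = 0.0454) was lost in 9 of 17 alternatives, among them the fits without DMSO replicate 1, 2 or 3 and without ML60218 replicate 2 or 3 (adjusted p from 0.0652 to 0.179).

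Among the other regulators, SON, RBM12 and CIRBP changed most. SON, a large nuclear speckle protein that supports the splicing of weak introns, stood at 381, 352 and 361 CPM in siControl and at 550.05, 545 and 566 CPM in siPOLR3A. The groups were separate, with a fold change on the log2 scale of 0.60 (SE 0.029, adjusted p = 7.49e-10). In ML60218 it was at 461, 428 and 436 CPM against 539, 516 and 512 CPM in DMSO, a change of −0.24 (SE 0.037, adjusted p = 0.00106) that reached an adjusted p of 0.052 with the isoform length offset.

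RBM12, an RNA-binding protein whose gene shares its first exons with CPNE1 (chromosome 20, 35648925 to 35664956, minus strand, GRCh38), showed the largest ML60218 change among the members. It stood at 256, 257 and 252 CPM in DMSO and at 156, 149 and 141 CPM in ML60218. Every treated library was below every control, with a fold change on the log2 scale of −0.78 (SE 0.039, adjusted p = 5.26e-06). After the siRNA it was at 209, 217 and 211 CPM against 199, 203 and 202 CPM in siControl. The change was 0.08 (adjusted p = 0.0152), and without siPOLR3A replicate 2 it was 0.06 (adjusted p = 0.072).

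CIRBP, the cold-inducible RNA-binding protein, was the only member that rose in both comparisons (background 4.75% of the genes tested in both). It went from 131, 135 and 133 CPM in siControl to 181, 180.0 and 176 CPM in siPOLR3A (log2 fold change 0.43, SE 0.025, adjusted p = 4.33e-09). ML60218 libraries held 185, 192 and 191 CPM and DMSO libraries 169, 166 and 165 CPM (0.18, SE 0.031, adjusted p = 0.00157). The groups were separate in each case. RBM3, the other cold-inducible protein of the list, fell in both, by 0.09 and 0.19, but its siRNA call was lost in 5 of 17 alternatives and its ML60218 call with total counts and without DMSO replicate 1 or 2.

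RBM10, a regulator of exon skipping, fell after the siRNA by 0.37 (adjusted p = 1.47e-07) and was at −0.06 with ML60218 (adjusted p = 0.331). RBM5, its close relative, was called at 0.07 after the siRNA, a call that was lost in 10 of 17 alternatives, among them the fits without siControl replicate 1 or 3 and without siPOLR3A replicate 1, 2 or 3. U2AF2, the large subunit of the factor that recognises the polypyrimidine tract, fell in both comparisons, by 0.15 and 0.22. U2AF1, the small subunit that reads the AG at the 3′ splice site, fell with ML60218 by 0.15 (with total counts the adjusted p was 0.0558), as did RBM39, a U2AF2-related coactivator, by 0.18. After the siRNA U2AF1 and RBM39 were at −0.02 and 0.02 and did not pass the test.

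**Figure D2:**
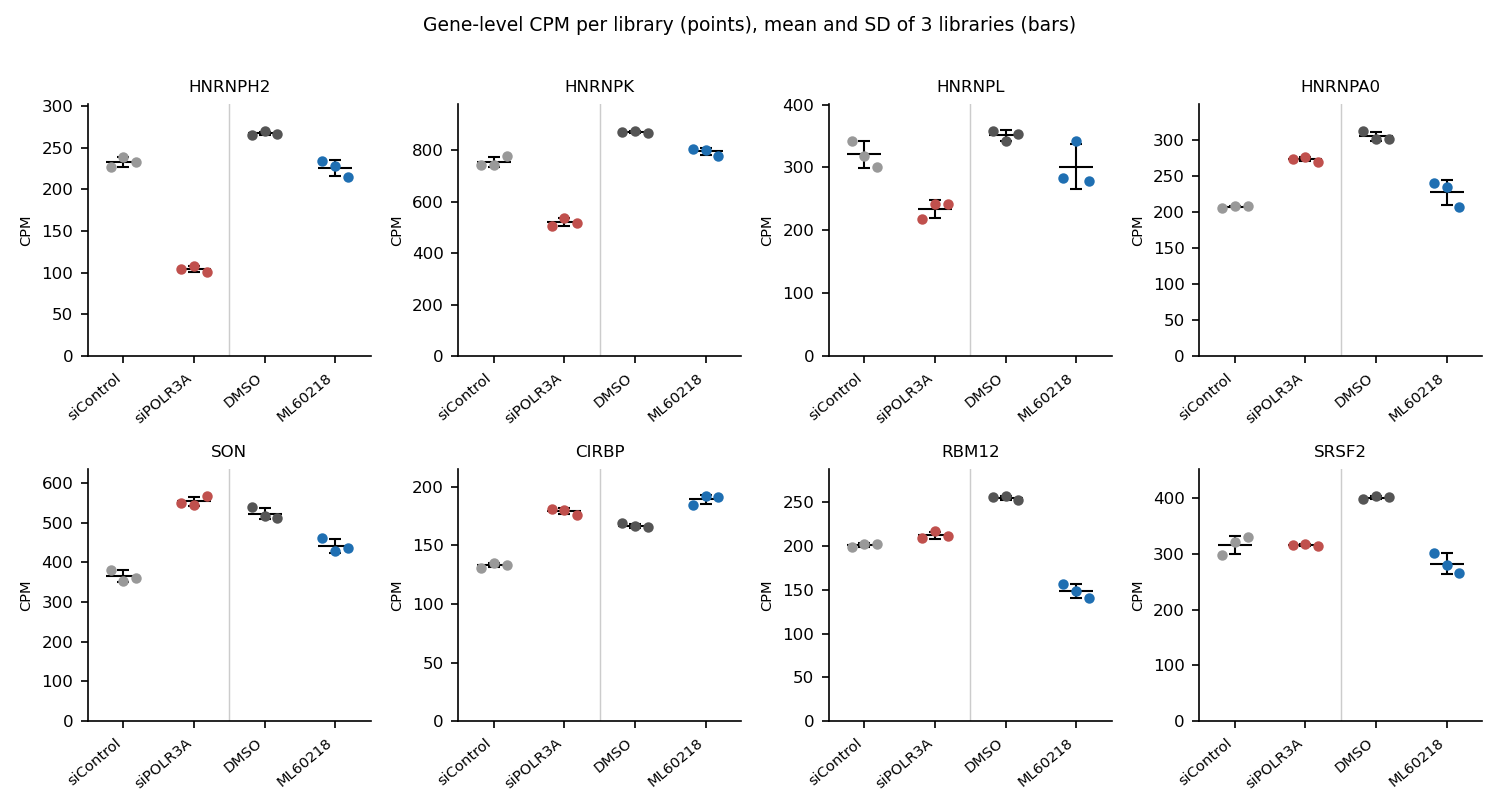
Gene-level CPM (y axis, from 0) in each library of the 4 groups (x axis) for the 8 members with the largest called changes; points are libraries, and bars give the mean and SD of 3 libraries. HNRNPH2, HNRNPK and HNRNPL are lower in siPOLR3A than in siControl, RBM12 and SRSF2 are lower in ML60218 than in DMSO, and HNRNPA0 and SON go up in the left pair and down in the right pair.

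The difference between the effects was then tested in a fit of all 12 libraries, with the ML60218 effect subtracted from that of siPOLR3A. It passed for 28 of 43 members, positive for 20 and negative for 8, against a background of 50.9% of 15780 genes (24.5% higher and 26.4% lower). Agent, duration and control all differ between the experiments, so these cannot be told apart in this difference. The largest positive differences were in RBM12 (0.86, SE 0.046), SON (0.85, SE 0.050) and HNRNPA0 (0.83, SE 0.058), and the largest negative one was in HNRNPH2 (−0.91, SE 0.048). For SR proteins 9 of the 10 differences that passed were positive, the exception being SRSF4 at −0.18. The 2 comparisons share no control libraries, and 42 members were tested in each. Of these 11 fell in both, against 7.52% of the 15165 genes tested in each. A further 8 rose after the siRNA and fell with ML60218 (background 7.49%), 1 (CIRBP) rose in both and 0 fell after the siRNA and rose with ML60218 (background 6.43%). HNRNPDL, HNRNPR and PTBP2 passed in neither, and CLK2 did not pass in the comparison in which it was tested.

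Other genes of the splicing pathway were counted in the same fits. The background over all genes was 27.4% higher and 29.2% lower after the siRNA. With ML60218 it was 18.1% higher and 20.9% lower. Of 46 core spliceosome genes, 33 fell and CWC22 rose with ML60218 (median −0.17), and 18 rose and 12 fell after the siRNA (median 0.03). The largest such changes were −1.18 for SF3B1, a U2 snRNP subunit, after the siRNA (711 ± 10.8 CPM in siControl and 314 ± 7.13 CPM in siPOLR3A, SD, n = 3) and −0.66 for SF3B5 with ML60218. Of 27 other RS-domain proteins, 13 rose and 8 fell after the siRNA, with U2SURP at 0.54 and SRRM2 at −0.44, and 7 rose and 7 fell with ML60218, with ZRSR2 at 0.39 and SRRM1 at −0.38. Of 22 other splicing RNA-binding proteins, 8 rose and 10 fell after the siRNA, with RBFOX2 at 0.79 and PTBP3, a paralog of PTBP1, at −0.77. In that list 3 rose and 14 fell with ML60218, with HNRNPAB at −0.34.

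Kinases of SR proteins other than CLKs moved apart from each other after the siRNA. SRPK1 and SRPK2, which phosphorylate SR proteins in the cytoplasm, fell by 0.29 and 0.31, DYRK1A rose by 0.22, and SRPK3, a muscle-enriched kinase at 1.83 CPM in siControl, rose by 1.34. With ML60218, SRPK2 rose by 0.13 and PRPF4B fell by 0.32, and SRPK1 was at −0.00. Of 15 factors of nonsense-mediated decay, 5 rose and 6 fell after the siRNA, among them the exon junction components CASC3 (−0.80), RBM8A (−0.75) and MAGOH (0.44). SMG9 rose with ML60218 and 5 fell, among them SMG8 (−0.40) and EIF4A3 (−0.33). Of these 15 factors, 11 were called after the siRNA, against 56.6% of all genes. With ML60218 6 were called, near the 39% of all genes.

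For the transcript classes, the reads of NMD and retained-intron rows of a gene were summed and set against the reads of its coding rows in the same library, which makes the ratio free of library scaling. Class names are GENCODE's annotation of a row, not a measurement of decay, and the program's shares among isoforms carry no error in the deposited table. HNRNPA2B1-203, for example, is annotated NMD and was the most abundant matched row of its gene, at a mean of 507 TPM over the 12 libraries. Shares of a gene's reads, here and below, are of those in its matched coding, NMD and retained-intron rows. Of such reads HNRNPA1 had 52.3% to 59.5% in its 1 NMD row, while 52.7% of the reads placed at the gene lay in unmatched rows. The ratio could be tested for 33 members, those with at least 10 reads in each class in 3 libraries. Unmatched rows have no class and were left out of the ratio in every alternative. They held 36.1% of the reads placed at HNRNPK and 34.3% of those placed at HNRNPA2B1.

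In 14 of the members, 33 NMD rows had an internal exon that no coding row of the gene overlaps and in which the reading frame ends. An exon each of SRSF3, SRSF6 and RBM39 is shown because the decay-class ratio of these genes rose with ML60218. The ratio also rose for SRSF2 and TRA2B, which had no such row. SRSF3 and RBM39 had other such exons that are not shown. Among them was that of RBM39-236, at a mean of 12.99 TPM against 12.36 TPM for RBM39-206. Each exon shown is given 5′ to 3′ on the coding strand from its first base to the stop codon, which is in capitals. Sequences are those of GENCODE 29 transcripts on GRCh38.

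SRSF3-203, exon 4 of 7, chr6:36599821-36599854, plus strand: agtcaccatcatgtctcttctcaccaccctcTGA

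SRSF6-202, exon 3 of 7, chr20:43459153-43459304, plus strand: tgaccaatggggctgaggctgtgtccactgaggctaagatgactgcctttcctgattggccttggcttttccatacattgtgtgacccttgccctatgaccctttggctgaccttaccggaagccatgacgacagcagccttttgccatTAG

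RBM39-206, exon 3 of 18, chr20:35740526-35740597, minus strand: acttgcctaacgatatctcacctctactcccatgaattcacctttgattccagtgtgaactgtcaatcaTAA

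The whole exons measure 456, 268 and 73 bases in the annotation, and the stop codon ends at base 34 of the SRSF3 exon, base 152 of the SRSF6 exon and base 72 of the RBM39 exon. A row was counted for an exon when it had an exon with the same start or the same end, so it need not hold the stop codon. By this rule 3 of 8 rows in the table were counted for SRSF3, 1 of 2 for SRSF6 and 10 of 45 for RBM39. Among them were 1 retained_intron row of SRSF3, and 1 retained_intron and 1 processed_transcript row of RBM39.

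Rows counted for these exons made up more of each gene's TPM in ML60218 than in DMSO. For SRSF3 the share was 8.64%, 8.76% and 8.34% in DMSO and 14.3%, 14.9% and 21.3% in ML60218. RBM39 shares were 11.4%, 10.3% and 13.4% in DMSO and 17.3%, 19.0% and 23.2% in ML60218, and those of SRSF6 were 18.3%, 20.3% and 20.1% against 25.4%, 24.2% and 26.0%. In no gene of the 3 did the groups overlap, and ML60218 replicate 3 was the highest in each. After the siRNA the mean shares were 13.7% ± 0.706 for SRSF3, 25.0% ± 0.990 for SRSF6 and 15.4% ± 0.440 for RBM39, against 11.4% ± 0.830, 22.5% ± 1.05 and 14.9% ± 1.42 in siControl (SD, n = 3). These shares are descriptions with no test of their own, since the genes were picked for the class ratio.

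**Figure D3:**
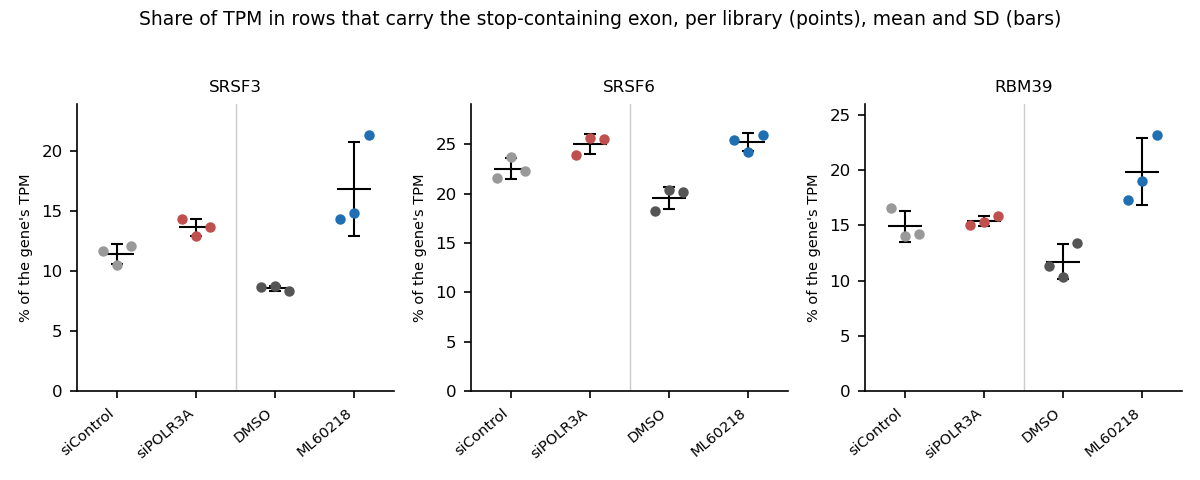
Share of a gene's TPM (y axis, percent, from 0) in rows counted for the stop-containing exon of SRSF3, SRSF6 and RBM39, per library of the 4 groups (x axis). Counted rows have an exon with the same start or the same end. Points are libraries, and bars give the mean and SD of 3 libraries. ML60218 libraries lie above DMSO libraries in each panel, with SRSF3 at 14.3% to 21.3% against 8.34% to 8.76%.

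With ML60218, the ratio changed for 6 of 33 members, upward for RBM39, SRSF2, SRSF3, TRA2B and SRSF6 and downward for HNRNPA2B1 (limma on log2 ratios, adjusted over 6596 genes). The background was 1.86% of genes called, 1.76% higher and 0.106% lower, and the median was 0.17 for the members and 0.12 over all genes tested. In RBM39, NMD and retained-intron rows held 40.02%, 41.9% and 41.3% of the gene's reads in DMSO and 56.8%, 55.6% and 62.0% in ML60218. The 2 groups lay far apart, and the log2 change of the ratio was 1.00 (SE 0.102, adjusted p = 0.00863). Of the 6 calls, RBM39's was the only one kept in all 14 alternatives, with values from 0.76 to 1.21. The count of 6 fell to 1 without DMSO replicate 1, DMSO replicate 2 or ML60218 replicate 3, and to 3 without DMSO replicate 3. It was 2 without ML60218 replicate 1 or 2. There the call beside RBM39 was HNRNPDL without replicate 1 and HNRNPU without replicate 2, neither of them among the 6.

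In SRSF2 the decay-class share was 5.004%, 4.99% and 6.28% in DMSO and 8.90%, 8.65% and 10.7% in ML60218. The libraries did not overlap, and the ratio changed by 0.86 (SE 0.139, adjusted p = 0.0275). SRSF3 had shares of 38.7%, 37.3% and 41.6% in DMSO and 47.8%, 46.6% and 51.2% in ML60218, again without overlap (0.55, SE 0.090, adjusted p = 0.028). Without 1 library at a time the SRSF2 value ranged from 0.75 to 0.97, with an adjusted p of 0.108 without DMSO replicate 1, 0.0925 without DMSO replicate 2 and 0.0606, 0.0562 and 0.103 without ML60218 replicates 1, 2 and 3. For SRSF3 the same 5 fits gave adjusted p of 0.111, 0.0906, 0.067, 0.0505 and 0.0897, and as a ratio of TPM the value was 0.40 (adjusted p = 0.0871). Most of the SRSF3 rise lay in NMD rows, which went from 3.80%, 3.83% and 4.38% of reads to 6.87%, 8.91% and 13.7%.

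TRA2B and SRSF6, chosen for values seen, had the other upward calls. The TRA2B share was 58.6%, 55.3% and 58.5% in DMSO and 65.05%, 64.5% and 66.0% in ML60218 (0.47, SE 0.075, adjusted p = 0.0269), and that of SRSF6 was 8.30%, 9.39% and 9.32% against 12.2%, 11.5% and 12.4% (0.47, SE 0.090, adjusted p = 0.0483). HNRNPA2B1, without its unmatched rows, went the other way, from 60.7%, 59.1% and 59.6% to 55.2%, 56.0% and 54.2% (−0.28, SE 0.047, adjusted p = 0.0312). All 3 were free of overlap, and each lost its call when any 1 of the 6 libraries was left out. HNRNPDL, a close relative of HNRNPD, had 3.62%, 4.08% and 3.74% in DMSO and 5.68%, 7.55% and 11.6% in ML60218, a change of 1.13 that did not pass (SE 0.264, adjusted p = 0.0861). Among the ML60218 libraries, replicate 3 was the highest for HNRNPDL, SRSF3, SRSF2 and RBM39.

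Within these genes coding rows moved as well as the other classes, which did not all go the same way. On the CPM scale, the log2 ratio of group means for coding rows was −0.67 in RBM39, −0.60 in SRSF3, −0.58 in TRA2B, −0.57 in SRSF2 and −0.27 in SRSF6. For NMD rows it was 0.53, 0.92, 0.18, 0.56 and 0.19 in the same order. Retained-intron rows were at 0.18 in RBM39, −0.22 in SRSF3, −0.27 in TRA2B and 0.23 in SRSF2. In all 5 genes coding rows were lower and NMD rows higher in the means, which are a description of the genes chosen by the ratio.

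After the siRNA, the ratio changed for 10 of 33 members, upward for 8 and downward for 2, against 9.65% of 6642 genes, 6.88% higher and 2.77% lower. The median was 0.09 for the members and 0.08 over all genes. NMD rows of all genes took 2.56% to 2.58% of the reads in siPOLR3A and 2.48% to 2.50% in siControl. Retained-intron rows took 5.62% to 5.84% and 5.43% to 5.54%, and the part of this in the members' ratios was not tested. With its unmatched rows left out, HNRNPK had decay-class shares of 4.64%, 4.59% and 4.94% in siControl and 8.34%, 7.84% and 7.30% in siPOLR3A. The ratio rose by 0.77 (SE 0.077, adjusted p = 0.00146), but with NMD rows alone it was −0.24 (adjusted p = 0.739), and the log2 ratio of means was −0.59 for coding rows, −0.83 for NMD rows and 0.48 for retained-intron rows. U2AF2 had shares of 7.42%, 7.22% and 8.25% in siControl and 12.5%, 12.7% and 11.3% in siPOLR3A. Its ratio rose by 0.74 (SE 0.092, adjusted p = 0.00366), mostly through the NMD row U2AF2-208, and with retained-intron rows alone the value was 0.30 (adjusted p = 0.0982).

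SRSF4 had shares of 12.7%, 12.4% and 11.1% in siControl and 18.9%, 16.5% and 19.1% in siPOLR3A, almost all of it in retained-intron rows. The change was 0.69 (SE 0.105, adjusted p = 0.00777), and as a ratio of TPM it was 0.42 (adjusted p = 0.183). CLK3 had shares of 28.0%, 28.8% and 26.7% in siControl and 34.6%, 36.0% and 37.1% in siPOLR3A, a change of 0.54 (SE 0.089, adjusted p = 0.0107) that with NMD rows alone did not pass (0.45, adjusted p = 0.461). The groups did not overlap in either gene.

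Smaller rises were called for SRSF9 (0.33), CLK4 (0.33), SRSF3 (0.24) and SRSF7 (0.22). As a ratio of TPM the value for SRSF3 was 0.02 (limma, adjusted p = 0.861), and the calls for SRSF7 and SRSF9 were lost as well. Those of SRSF9 and CLK4 were lost without any 1 of the 6 libraries, that of SRSF7 without any 1 but siPOLR3A replicate 3, and that of SRSF3 without siControl replicate 3 or siPOLR3A replicate 3. Falls were called for CIRBP, from 25.3%, 28.4% and 25.2% to 20.0%, 20.6% and 20.8% (−0.47, SE 0.083, adjusted p = 0.0138), and for HNRNPA2B1 (−0.28, adjusted p = 0.0316), the latter lost without siControl replicate 3 or siPOLR3A replicate 1 or 3. CIRBP, HNRNPK, U2AF2, SRSF4 and CLK3 each kept their call in every alternative that left out a library. The count of 10 was 5 without siControl replicate 3 and 6 without siPOLR3A replicate 1, and with NMD rows alone it was 1. CLK1 had 76.8%, 78.6% and 76.9% of its reads in these classes in siControl and 75.2%, 76.6% and 75.9% in siPOLR3A, a change of −0.12 that did not pass (adjusted p = 0.444).

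**Figure D4:**
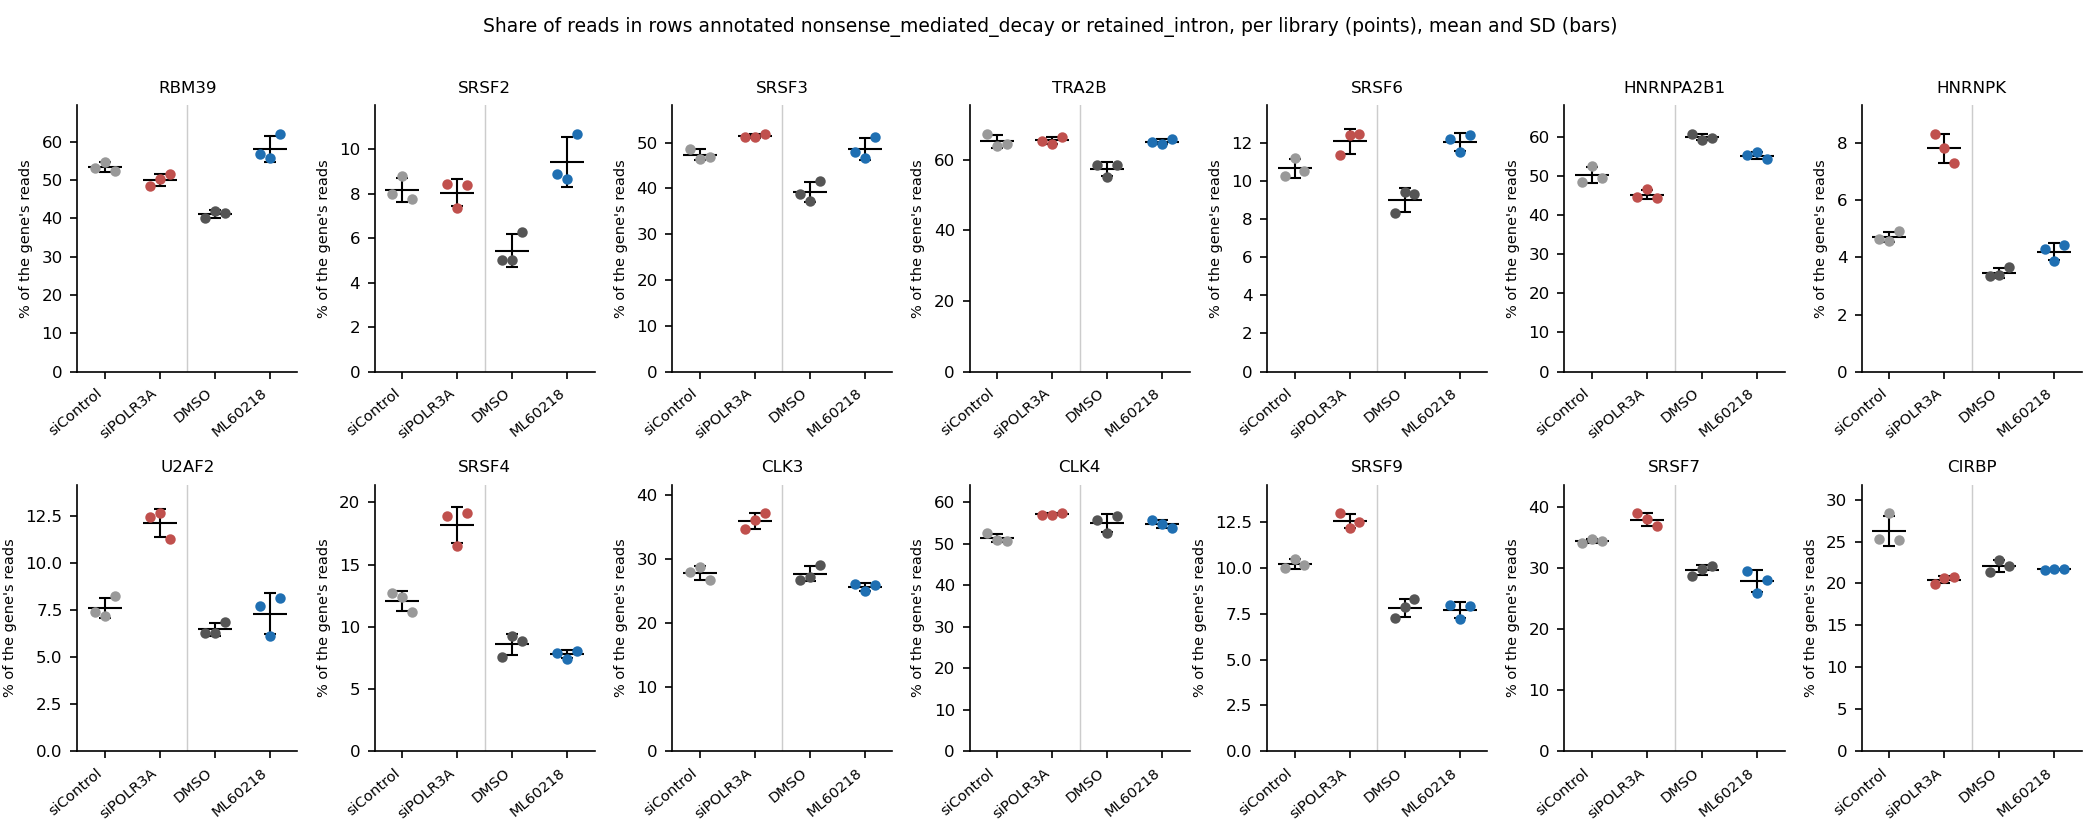
Share of a gene's reads (y axis, percent, from 0) in rows annotated nonsense_mediated_decay or retained_intron, out of its matched rows of these classes and protein_coding. It is given for the 14 members whose class ratio was called in either comparison, per library of the 4 groups (x axis). Points are libraries, and bars give the mean and SD of 3 libraries. RBM39 rises from 40.02% to 41.9% in DMSO to 55.6% to 62.0% in ML60218, and HNRNPK from 4.59% to 4.94% in siControl to 7.30% to 8.34% in siPOLR3A.

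The ratio effects themselves differed between the experiments for 10 members, against a background of 8.46% of 7010 genes (3.55% higher and 4.91% lower). With the ML60218 effect subtracted from the siRNA effect, it was −1.19 for RBM39 (SE 0.128, adjusted p = 0.000264), −0.88 for SRSF2, −0.67 for HNRNPU, −0.60 for CLK1, −0.46 for TRA2B and −0.44 for CIRBP. It was 0.84 for SRSF4, 0.69 for CLK3, 0.49 for HNRNPK and 0.35 for SRSF7. For SRSF3 the difference of −0.31 did not pass the test (adjusted p = 0.1). The count was 6 without siPOLR3A replicate 2.

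At the level of single rows, a smaller share of the features tested passed than at the level of genes. After the siRNA 89 of 425 member rows changed, 42 up and 47 down, against 13.1% of 58745 rows (5.73% higher and 7.4% lower). Coding rows made up 54 of them, 24 up and 30 down of 182 tested (background 18.3%, with 7.26% higher and 11.1% lower). Of 58 NMD rows 5 rose and 2 fell (background 6.46%, with 3.23% in each direction). Of 142 retained-intron rows 10 rose and 11 fell (background 5.75%, with 3.89% higher and 1.87% lower), and of 43 processed_transcript rows 3 rose and 4 fell (background 5.59%, with 3.1% higher and 2.49% lower). HNRNPH2-201, the coding row of its gene, went from 123.5, 121 and 122 TPM to 55.7, 57.3 and 54.3 TPM (log2 fold change of counts −1.17, adjusted p = 3.33e-05). CIRBP-201, the most abundant coding row of its gene, went from 30.5, 27.9 and 30.6 TPM to 75.5, 71.2 and 70.9 TPM (1.26, adjusted p = 3.77e-05). The fall in the CIRBP class ratio was thus accompanied by a rise of this coding row, while CIRBP-245, its most abundant row in the other classes, was at −0.04 (adjusted p = 0.934).

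In HNRNPK the coding rows HNRNPK-202 (−0.86, adjusted p = 6.38e-05) and HNRNPK-205 (−0.72, adjusted p = 0.000915) fell after the siRNA. HNRNPK-202 stood at 233, 215 and 229.7 TPM in siControl and at 123.5, 125 and 133 TPM in siPOLR3A, and the most abundant retained-intron row, HNRNPK-210, was at 0.22 (adjusted p = 0.253). The 3 SON coding rows with the highest levels rose together: SON-203 by 0.66, SON-207 by 0.63 and SON-202 by 0.70, with adjusted p of 0.000212, 0.000679 and 0.00137. SON-217, the most abundant retained-intron row of SON, was at 0.58 (adjusted p = 0.0516). HNRNPA0-201 rose by 0.39 (adjusted p = 0.000196), from 32.0, 29.6 and 30.7 TPM to 41.1, 41.5 and 40.9 TPM.

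With ML60218 34 of 427 member rows changed, 5 up and 29 down, against 3.23% of 59292 rows (1.15% higher and 2.08% lower). Of these 29 were coding, 3 up and 26 down (background 4.43%, with 1.14% higher and 3.29% lower). NMD rows gave 1 rise and 1 fall (background 1.77%, with 1.39% higher and 0.385% lower), and retained-intron rows 1 rise and 2 falls (background 1.55%, with 1.25% higher and 0.297% lower). This count fell whichever library was left out. It was 0 without DMSO replicate 1, 2 or 3 or without ML60218 replicate 2. It was 16 without ML60218 replicate 1 and 11 without ML60218 replicate 3. At an unadjusted p under 0.05, edgeR gave 146 member rows with all libraries and 110, 117, 120 and 134 in the 4 fits with a count of 0, and DESeq2 with all libraries called 114 at its adjusted p.

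RBM12-202 stood at 30.7, 32.5 and 29.4 TPM in DMSO and at 18.3, 19.6 and 17.7 TPM in ML60218 (log2 fold change of counts −0.88, adjusted p = 0.0178), and RBM12-203 fell by 0.67 (adjusted p = 0.0192). SRSF2-202, the main coding row, stood at 306, 312 and 293 TPM in DMSO and at 208, 202 and 181 TPM in ML60218 (−0.76, adjusted p = 0.0204), while SRSF2-209, its most abundant retained-intron row, was at 0.36 (adjusted p = 0.359). In RBM39 the main coding row RBM39-203 went from 72.8, 71.5 and 67.7 TPM to 50.2, 51.4 and 45.4 TPM (−0.67, adjusted p = 0.0215). RBM39-223, a retained-intron row, was at 14.99, 16.4 and 14.5 TPM in DMSO and at 20.1, 19.4 and 20.6 TPM in ML60218 (0.25, adjusted p = 0.0723), and RBM39-206, with the exon shown above, was at 13.1, 12.6 and 12.8 TPM and at 17.0, 22.8 and 24.2 TPM (0.58, adjusted p = 0.0518). The coding row was separate between groups and passed, and the other 2 rows were separate and did not pass.

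SRSF3 coding rows SRSF3-202 and SRSF3-208 fell by 0.60 and 0.63 (adjusted p = 0.0254 and 0.0457). SRSF3-206, annotated retained_intron, fell with them by 0.43 (adjusted p = 0.0492); it is a short model of 544 bases and, at 356 TPM over the 12 libraries, the most abundant SRSF3 row. The NMD row SRSF3-203 stood at 38.3, 39.9 and 42.4 TPM in DMSO and at 56.5, 80.03 and 118 TPM in ML60218, without overlap, and did not pass (0.93, adjusted p = 0.103). In CIRBP the short coding row CIRBP-224 rose from 33.5, 33.4 and 26.6 TPM to 54.6, 57.1 and 68.0 TPM (0.79, adjusted p = 0.0254), whereas CIRBP-201, the row that rose after the siRNA, was at −0.10 (adjusted p = 0.227). SON-203 fell by 0.51 (adjusted p = 0.0178), and HNRNPA0-201, HNRNPH2-201 and HNRNPK-205 fell by 0.43, 0.25 and 0.32.

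Within CLK1, which has more reads in retained-intron rows than in coding rows, both classes rose after the siRNA: CLK1-201, coding, by 0.63 (adjusted p = 0.0237) and CLK1-210, retained_intron, by 0.48 (adjusted p = 0.00209). With ML60218 they were apart. CLK1-201 went from 10.99, 11.6 and 12.5 TPM to 8.81, 9.18 and 9.75 TPM (−0.49, adjusted p = 0.0413), and CLK1-210 stood at 14.02, 13.8 and 12.7 TPM in DMSO and at 17.7, 16.6 and 18.1 TPM in ML60218 (0.22, adjusted p = 0.103). The class ratio of CLK1 with ML60218 was 0.48 and did not pass (adjusted p = 0.0765). In CLK3 the retained-intron row CLK3-226 rose after the siRNA by 0.40 (adjusted p = 0.0277), and no coding row of CLK3 or CLK4 passed in either comparison.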

How the data were processed

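Poly(A) RNA of HEK293T cells was sequenced in 12 libraries, 3 in each of 4 groups. The submitters' processing notes name bcl2fastq 2.20, Trim Galore, DESeq2 and hg38, without saying which step used what. The authors deposited an estimated count and a TPM (a share of all transcripts after division by transcript length) for each transcript, and the columns are those that salmon writes, per the file headers. Its version, settings and annotation are not given in the sources used here. Of 194142 transcript rows, 158359 (81.6%) were matched to GENCODE 29 (GRCh38) by identifier without version.

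Estimated counts were rounded and summed per gene, or kept per row, and tested with edgeR 4.0.16 (TMM scaling, quasi-likelihood test, minimum count 10 and minimum total 15, robust) in R 4.3.3. Decay-class ratios, log2 of NMD plus retained-intron reads over coding reads with a pseudocount of 0.5, were tested with limma 3.58.1. P-values were adjusted by Benjamini and Hochberg over all features tested, with a threshold of 0.05. With 3 against 3 libraries an exact two-sided test of a single value cannot go below 0.1, so none was run. The fits were tested on simulated counts with the same spread for every feature and no error in the assignment of reads to isoforms. That test therefore does not cover such error in row and ratio calls. Alternatives used DESeq2 1.42.0, other scalings, filters, pseudocounts, an isoform length offset, each library left out, and a GC and length correction that was chosen after seeing the data. The tables were handled with Python 3.11.15 and pandas 2.3.3.

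The members and lists were chosen with earlier results of these data known. Values in every library are given for called members that changed by 0.5 or more on the log2 scale or, as fewer than 8 passed that, the 8 with the largest changes, for CLK1 to CLK4 and for members whose class ratio was called with a change of at least 0.5. The rows named are at most 8 called rows a comparison of these members, with the most abundant coding row and NMD or retained-intron row. Pathway lists are given by counts and at most 2 called genes a direction.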

Additional observations from a re-analysis of the deposited data

Results flagged for a closer look

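For 8 members the siRNA call was upward and the ML60218 call downward. The difference test used the same libraries, so its passing for members picked by opposite calls is no separate support. The difference between the effects came from 1 edgeR fit over all 12 libraries. With the ML60218 effect subtracted from that of siPOLR3A on the log2 scale, it was 0.86 for RBM12 (adjusted p = 6.41e-10), 0.85 for SON (1.68e-09), 0.83 for HNRNPA0 (1.28e-08) and 0.58 for PTBP1 (1.45e-08). For the SR proteins it was 0.46 for SRSF8 (adjusted p = 1.71e-06), 0.43 for TRA2B (3.9e-06), 0.29 for SRSF11 (5.51e-06) and 0.17 for SRSF7 (0.000907). Over the 15165 genes tested in both comparisons, 7.49% were called in these directions, and 50.9% of all genes had a difference that passed. No member was called lower after the siRNA and higher with ML60218, against 6.43% of those genes.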

How the results depend on the processing

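The counts of member genes called (30 after the siRNA, 29 with ML60218) and of genes whose effects differed (28) stayed within 1.5 times under every alternative run. Row counts did not: after the siRNA 89 became 140 with DESeq2 and 47 with the replicate block, and with ML60218 34 became 114 with DESeq2, 20 with total counts, 12 with limma on log2 TPM, 0 with the replicate block (121 at an unadjusted edgeR p under 0.05) and 0 to 16 with a library left out. The 10 class ratios called after the siRNA became 1 with NMD rows only, 5 with an edgeR class interaction and 5 to 7 with a library left out. The 6 called with ML60218 became 2 with NMD rows only, 1 with the edgeR interaction, 3 with the replicate block and 1 to 3 with a library left out. Counts with a library left out include members that the main fit did not call. The 10 ratio differences became 6 to 12 with a library left out. The causes were not tested.

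With the replicate number as a block, 28 and 27 member genes and 25 differences were called, 7 ratios after the siRNA and 8 ratio differences. Deviations of same-numbered libraries from their group means had correlations of −0.02, −0.02 and −0.10 in the siRNA experiment and −0.07, 0.02 and −0.07 in the other. Those of libraries with unlike numbers lay between −0.07 and 0.10. With 3 libraries a group, these values cannot decide whether same-numbered libraries shared a culture or a batch.

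Some values changed sign. With NMD rows only, the HNRNPK ratio after the siRNA was −0.24. Under 1 alternative each, the uncalled ratios of RBM39 and SRSF5 after the siRNA went from −0.19 and −0.24 to 0.32 and 0.66. A correction for GC content and length gave 0.0346 for SRSF3 after the siRNA, −0.0331 for CLK1 and 0.0314 for CLK3 with ML60218, and 0.0770 for CLK4 after the siRNA. CLK1 with ML60218 was −0.00161 without the count filter and from −0.0290 to 0.0397 with a library left out. CLK3 with ML60218 was 0.000861 with RLE scaling, 0.0668 with total counts, 0.0357 when scaled by the upper quartile, 0.00767 with a minimum count of 50, 0.000883 with DESeq2 and from −0.0641 to 0.0347 with a library left out. CLK4 after the siRNA was 0.0407 with total counts, 0.0505 when scaled by the upper quartile, 0.00275 with a minimum count of 50, 0.0364 with the isoform length offset and from −0.0210 to 0.000942 with a library left out. Of 1135 values for 78 single results under alternatives, 951 kept direction and side of the threshold, 163 lost the threshold and 21 changed sign. Of the 163, 82 concerned rows with ML60218. Uncalled values outside these 78 also changed sign, such as HNRNPU with ML60218 in 8 of 17 alternatives and HNRNPA2B1 in 5. After the siRNA, U2AF1 changed sign in 4 of 17 and SRSF2 in 3. Isoform shares carry an estimation error that the deposited table does not give.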
